A study of Homo sapiens with 8 samples.

Results

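Fibroblast growth factors (FGFs) are secreted ligands that bind receptor tyrosine kinases at the cell surface, with heparan sulfate as a cofactor, and switch on the RAS and ERK cascade. In the oligodendrocyte lineage FGF signalling is known to keep progenitors dividing and to act on their differentiation. A subgroup, the FGF homologous factors, stays inside the cell and binds voltage-gated sodium channels instead of the receptors. The genes described here are 10 members of this system, taken by name from the 18201 genes tested: the kinase receptors FGFR1, FGFR2, FGFR3 and FGFR4, the receptor FGFRL1, which lacks the kinase domain, the ligands FGF1, FGF2 and FGF9, and the homologous factors FGF12 and FGF13. All 10 passed the filter on low counts, FGF1 only through the VN and VNP2 libraries, since its Matrigel libraries had 9 and 11 estimated counts and the minimum is 10 in 2 libraries.

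H9, a human embryonic stem cell line in wide use, had been differentiated into oligodendrocyte progenitor cells (OPCs), and no SOX10 was overexpressed. They had been kept for 2 days on Matrigel, a basement membrane extract (replicates 2 and 3, n = 2), on the adhesive protein vitronectin (VN, n = 3) or on VNP2, a peptide designed from vitronectin (n = 3). All groups share the same single line and the same OPC medium, to which the study's methods add basic FGF, the protein that FGF2 encodes, together with retinoic acid, a Smoothened agonist and insulin. Polyadenylated RNA was sequenced, and the comparison asks how expression differs between the coatings. By the study's methods, the designed peptides were fused to a mussel adhesive protein and fixed on chemically activated vessels. The peptide, its fusion partner and the coating chemistry therefore cannot be told apart.

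The 8 libraries held between 37997896 and 39429453 estimated counts. Nothing in the labels says that replicates were separate differentiations, so the p-values measure only the spread between these libraries. VN replicate 1 stood apart from the other VN libraries, with a median chi-square per gene of 2.97 and 2.87 against them, where the remaining replicate pairs gave 1.38 to 1.52 and sampling noise gives 0.455. The OPC markers OLIG1, OLIG2, NKX2-2, PDGFRA and CSPG4 were present, whereas SOX10 had fewer than 10 normalized counts in every library. The 6 OPC markers summed to 4433 to 4515 on Matrigel, 5275 to 5438 on VN and 5496 to 5713 on VNP2. All 5 that were tested were higher on VNP2 than on Matrigel with an adjusted p under 0.05, and 2 were on VN. The summed level of the 8 neuronal markers lay at 38583 to 39655 for Matrigel, 43638 to 46213 for VN and 48368 to 49718 for VNP2. The sum of the 5 astrocyte markers, nearly all of it GJA1 and SLC1A3, was 12639 to 13196 for Matrigel, 7431 to 7973 on VN and 9052 to 9667 on VNP2, with GFAP under 10 everywhere. Of these, GJA1 fell on both VN and VNP2 (log2 -0.82 and -0.59 against Matrigel), whereas SLC1A3 rose on VNP2 over Matrigel (log2 0.28, adjusted p = 0.0308). The sum of the 5 epithelial markers was 6877 to 7244 for Matrigel, 3741 to 3924 for VN and 4227 to 4392 for VNP2. That of the 6 radial glia markers was 195340 to 199178 for Matrigel, 156744 to 162206 for VN and 168277 to 169703 for VNP2. Single radial glia markers were mixed, with 5 tested. VN against Matrigel had 1 higher and 2 lower with an adjusted p under 0.05, and VNP2 against Matrigel 2 higher and 2 lower. Their median log2 differences were 0.02 and 0.06. The 7 mesenchymal markers summed to 48385 to 50433 on Matrigel, 45243 to 48027 on VN and 38809 to 39640 on VNP2. Most single mesenchymal markers went against that fall. At the same threshold 3 were higher and 2 lower on VN than on Matrigel, and 5 higher and 2 lower on VNP2. Their median log2 differences were 0.19 and 0.29, with the largest fall in COL1A1 in both pairs. Of all genes tested, 5.66% were higher and 9.6% lower on VN, and 7.44% and 9.13% on VNP2. The OPC and neuronal sums were lowest for Matrigel and highest for VNP2, and the mesenchymal sum was the reverse. The astrocyte, epithelial and radial glia sums were lowest on VN. The part of these marker changes in the results was not tested. In bulk RNA, fewer cells of a type and less RNA per cell cannot be told apart.

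Compared by TPM, a share of the library's transcripts that is corrected for transcript length, FGFR1 was the most abundant member, at 135 ± 2.34 on Matrigel (SD, n = 2), 151 ± 0.907 in the VN group and 175 ± 5.83 in the VNP2 group (both n = 3). FGF13 followed at 119 ± 1.12, 126 ± 3.37 and 126 ± 3.08 TPM. FGFRL1 came next with 65.8 ± 1.48, 53.4 ± 3.60 and 57.2 ± 3.95 TPM. These 3 genes kept this order in every library. The sums take in every transcript of a gene, and full-length coding transcripts held 70.1 to 73.2% of the FGFR1 TPM. Full-length FGFR1 alone was below the FGF13 sum on Matrigel (100 and 95.1 TPM) and VN, and overlapped it on VNP2. On Matrigel, FGFR3 had 31.1 ± 0.0477 TPM and stood above FGFR2 (18.6 ± 0.601) and FGF2 (18.4 ± 0.627), which did not differ from each other beyond their spread. FGF12 (7.40 ± 0.944 TPM) and FGF9 (6.94 ± 0.301 TPM) did not differ beyond their spread either. FGFR4 at 1.16 ± 0.167 TPM and FGF1 at 0.128 ± 0.0160 TPM were close to the lower end of what these libraries can measure.

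A gene was called where its two-sided p, adjusted after Benjamini and Hochberg over all genes tested, was under 0.05 in 1 edgeR fit of all 8 libraries. Across the 3 substrates 5 members passed (FGFR1, FGFR2, FGFR3, FGFRL1 and FGF9), where 19.3% of all genes did. FGF1 passed the filter only through the groups in which it was higher, so the counts of pairs are given over the 9 other members. VN against Matrigel called 4 of the 9, 1 higher (FGFR2) and 3 lower (FGFR3, FGFR4, FGFRL1), against 15.3% of all genes tested (5.66% higher, 9.6% lower). VNP2 against Matrigel called 6, with FGFR1, FGFR2, FGF9 and FGF12 higher and FGFR3 and FGFRL1 lower, against 16.6% of all genes (7.44% higher, 9.13% lower). VNP2 against VN called only FGFR1 and FGFR2, both higher, against 5.1% of all genes (3.09% higher, 2.01% lower). The median log2 fold change of the 9 members was -0.0084, 0.016 and 0.12 in these pairs, beside medians of 0.00 over all genes. The libraries of the groups compared did not overlap for 7, 7 and 3 members, where 44.4%, 48.1% and 23.6% of all genes did not overlap. The first 2 comparisons share the Matrigel libraries, and their counts rest on both of them: over all 10 members, FGF1 included, the counts were 5 and 6, without Matrigel replicate 2 they were 1 and 3, and without replicate 3 they were 2 and 3. The first count was also 2 without VN replicate 2, and the second also 3 without VNP2 replicate 3. Without VN replicate 1, the library that stood apart, the 3 counts were 4, 7 and 2.

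**Figure D1:**
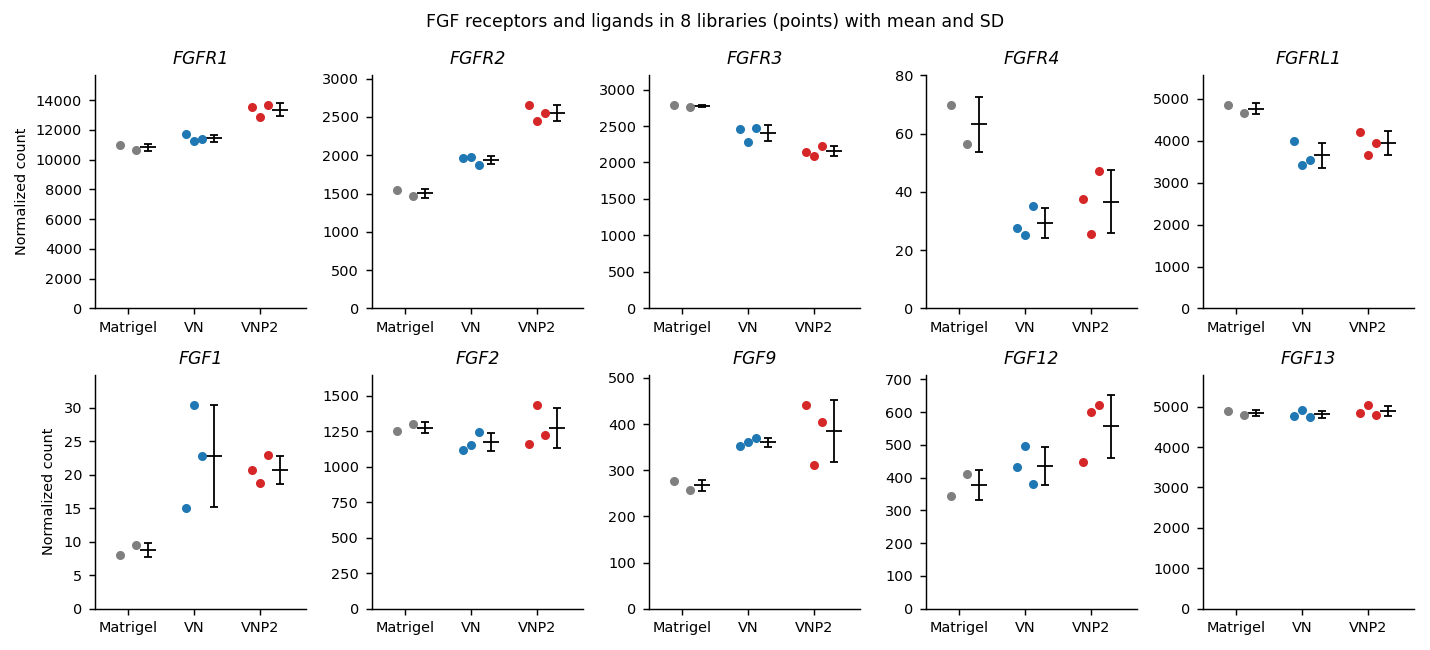
Normalized counts (linear axis from 0) of the 10 members in each library on Matrigel (grey, n = 2), VN (blue, n = 3) and VNP2 (red, n = 3); points are libraries, and the bar with whiskers is the mean ± SD. FGFR2 steps up and FGFR3 steps down from Matrigel to VN to VNP2 without overlap between substrates, whereas FGF13 lies between 4747 and 5031 in all 8 libraries.

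FGFR2, a kinase receptor gene at chr10:121478334-121598458 on the minus strand (GRCh38), was called in all 3 pairs, the only member that was. Its normalized counts, corrected for library size and transcript length, were 1542 and 1463 for Matrigel, 1965, 1971 and 1870.2 for VN, and 2655, 2453 and 2554 for VNP2. The 3 substrates did not overlap, with VN between Matrigel and VNP2. It rose by 0.36 on the log2 scale on VN over Matrigel (SE 0.0535, adjusted p = 0.00128) and by 0.76 on VNP2 over Matrigel (SE 0.0535, adjusted p = 5.00e-06). It also rose by 0.40 on VNP2 over VN (SE 0.0464, adjusted p = 0.000760), a fold of 1.32 (95% interval 1.23 to 1.42). All these calls held under every alternative run.

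FGFR1, the receptor with the highest level, had 11000.5 and 10659 normalized counts on Matrigel, 11697, 11267 and 11363 for VN, and 13537, 12868 and 13674 for VNP2. Every VNP2 library lay above every other library, and VN lay narrowly above Matrigel. FGFR1 rose 1.23-fold on VNP2 over Matrigel (log2 0.30, SE 0.0379, adjusted p = 0.000329) and 1.17-fold over VN (log2 0.22, SE 0.0336, adjusted p = 0.00355). The difference between VN and Matrigel was 0.08 on the log2 scale and did not pass (adjusted p = 0.189), with a fold between 0.997 and 1.12.

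FGFR3, a kinase receptor gene at chr4:1793293-1808872 on the plus strand (GRCh38), went the other way. Its normalized counts were 2787 and 2761 for Matrigel, 2464, 2278 and 2474 for VN, and 2144, 2091 and 2229.8 for VNP2, and the 3 substrates did not overlap. FGFR3 fell by 0.36 on the log2 scale on VNP2 against Matrigel (SE 0.0504, adjusted p = 0.000642), a call that held under every alternative. It fell by 0.21 on VN against Matrigel (SE 0.0504, adjusted p = 0.0205), a call lost without Matrigel replicate 2, Matrigel replicate 3 or VN replicate 2 (log2 -0.19, -0.21 and -0.17). Between VNP2 and VN the log2 difference was -0.16 (SE 0.0456) and did not pass (adjusted p = 0.0811), though DESeq2 called it at an adjusted p of 0.0481.

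With FGFR2 rising and FGFR3 falling, the order of these receptors by level turned over. The ratio of FGFR2 TPM to FGFR3 TPM was 0.610 and 0.584 for Matrigel, 0.879, 0.954 and 0.833 for VN, and 1.36, 1.29 and 1.26 for VNP2. FGFR3 was thus the more abundant of the pair in all 5 libraries on Matrigel and VN, and FGFR2 in all 3 on VNP2. The summed TPM of the 4 kinase receptors was 188 and 184 for Matrigel, 206, 204 and 207 for VN, and 236, 225 and 239.7 for VNP2. FGFR1 made up 72.6 to 74.8% of that sum in every library. The share of FGFR2 went from 9.99% ± 0.154 on Matrigel (SD, n = 2) to 12.3% ± 0.404 with VN and 14.1% ± 0.326 with VNP2 (both n = 3). The share of FGFR3 went from 16.7% ± 0.259 to 13.9% ± 0.490 and 10.8% ± 0.188. These ratios and shares are descriptions of the same values and were not tested.

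**Figure D2:**
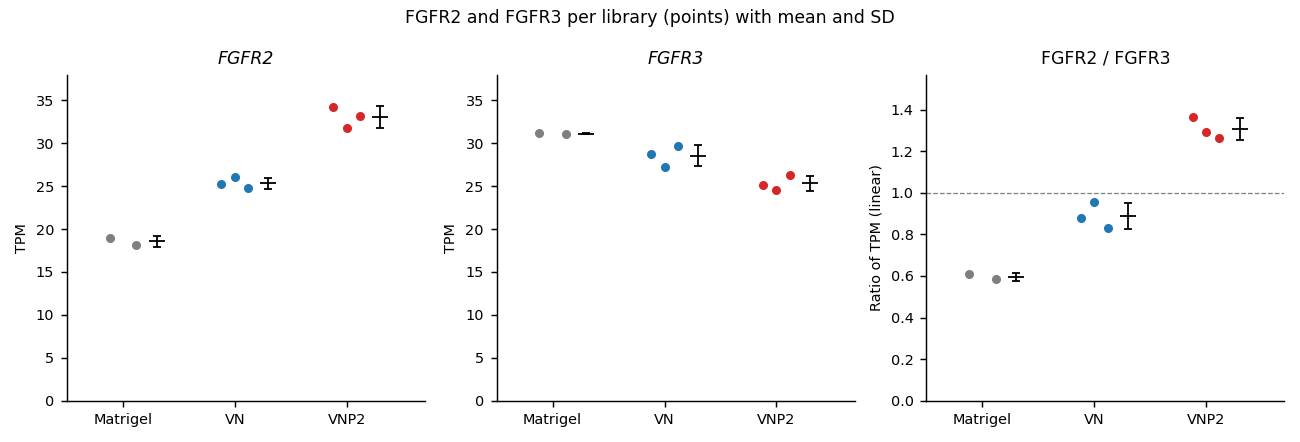
TPM of FGFR2 (left) and FGFR3 (middle) and the ratio of FGFR2 to FGFR3 (right, linear axis, dashed line at 1) in each library on Matrigel (n = 2), VN (n = 3) and VNP2 (n = 3), with mean ± SD. The ratio lies below 1 in the 5 Matrigel and VN libraries and between 1.26 and 1.36 on VNP2.

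FGFRL1, which binds FGFs but cannot signal through a kinase, had 4848 and 4664 normalized counts on Matrigel, 3991, 3409 and 3548 for VN, and 4216, 3662 and 3948 for VNP2. Both Matrigel libraries were above all others, while VN and VNP2 overlapped. It fell by 0.38 on the log2 scale on VN (SE 0.0715, adjusted p = 0.00564) and by 0.27 on VNP2 (SE 0.0714, adjusted p = 0.0264). The VN call was lost without Matrigel replicate 2, and the VNP2 call without either Matrigel library, without VNP2 replicate 2 or 3, and without length offsets. VNP2 over VN gave a fold of 1.08 (95% interval 0.978 to 1.19, adjusted p = 0.385).

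FGFR4, the rarest kinase receptor, had 69.8 and 56.6 normalized counts on Matrigel, 27.5, 25.3 and 35.1 for VN, and 37.4, 25.4 and 47.3 for VNP2. By these length-corrected counts it was highest in both Matrigel libraries, and VN and VNP2 overlapped. Uncorrected estimated counts were 39 and 55 on Matrigel, 35, 27 and 32 for VN, and 49.0, 31 and 44 for VNP2. Without the correction, Matrigel and VNP2 thus overlapped. FGFR4 fell by 1.10 on the log2 scale on VN (SE 0.292, adjusted p = 0.0294). Without length offsets the VN difference was -0.62 and the call was lost, as it also was without Matrigel replicate 2, Matrigel replicate 3, VN replicate 1 or VN replicate 2. The VNP2 difference of -0.78 (SE 0.286) did not pass (adjusted p = 0.0953), and it ranged from -0.99 to -0.24 over the alternatives.

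The receptors also come in forms that the counts above do not separate. The third immunoglobulin-like loop of FGFR1, FGFR2 and FGFR3 ends in 1 of 2 alternative exons, IIIb or IIIc, and the choice sets which ligands bind: IIIb of FGFR2 is the receptor of FGF7 and FGF10, whereas IIIc forms bind FGF2 and FGF9. Coding exons of this kind are printed here from the GENCODE v29 transcripts (GRCh38), 5′ to 3′ on the strand of the gene and in lower case throughout, since the receptor results turn on FGFR2 and FGFR3. The IIIb exons are 148 bases long in FGFR2 and 151 in FGFR3, and the IIIc exon of FGFR3 is 145.
FGFR2 IIIb, chr10:121518682-121518829, minus strand: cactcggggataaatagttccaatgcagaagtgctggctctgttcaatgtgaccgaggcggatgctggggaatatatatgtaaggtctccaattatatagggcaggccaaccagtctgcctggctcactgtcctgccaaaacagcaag
FGFR3 IIIb, chr4:1802914-1803064, plus strand: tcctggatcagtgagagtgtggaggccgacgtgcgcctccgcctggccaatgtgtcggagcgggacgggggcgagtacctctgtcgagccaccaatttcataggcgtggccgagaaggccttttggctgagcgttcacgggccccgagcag
FGFR3 IIIc, chr4:1803692-1803836, plus strand: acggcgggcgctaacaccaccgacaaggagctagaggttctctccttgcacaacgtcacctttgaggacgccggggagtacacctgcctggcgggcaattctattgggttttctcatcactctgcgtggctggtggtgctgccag

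Nearly all counts of transcripts with 1 of the alternative exons fell on the IIIc forms on every substrate. IIIc took 99.3 to 100% of the IIIb and IIIc estimated counts of FGFR1, 96.6 to 99.6% of those of FGFR2, and 98.4 to 100% of those of FGFR3. For FGFR2, the IIIb transcripts had 10.3 and 5.45 estimated counts on Matrigel, 32.9, 11.6 and 8.35 for VN, and 41.4, 81.1 and 15.6 for VNP2. VN overlapped both other substrates, while both Matrigel libraries lay below every VNP2 library. These IIIb counts are low. The IIIc transcripts of FGFR2 had 1459 and 1360.3 for Matrigel, 1819, 1870.2 and 1722 for VN, and 2282, 2320 and 2269.9 for VNP2, without overlap. Transcripts annotated with both exons held 2.59 to 11.6% of the FGFR3 counts. Salmon splits reads between overlapping transcripts, these shares carry its uncertainty, and no test was run on them.

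Another pair of forms of FGFR1 and FGFR2 differs by a short stretch of bases at the end of an exon next to the membrane-spanning part, which takes in or leaves out 2 residues. The last 30 bases of the longer exon of FGFR2, at chr10:121515117-121515146 on the minus strand, are shown with the 6 extra bases in capitals.
FGFR2, end of the longer exon: aaacgtatccccctgcggagacagGTAACA

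The longer exon was in 82.6 and 82.0% of the FGFR2 counts that could be assigned on Matrigel, in 86.6, 87.0 and 87.2% on VN, and in 85.3, 86.8 and 85.4% on VNP2. In FGFR1 it was in 63.1 to 70.8%. The exon of the first immunoglobulin-like loop was looked for only in full-length coding transcripts, those with IIIb or IIIc and most other coding exons. These held 91.9 to 93.5% of the FGFR1 counts, 90.8 to 95.6% for FGFR2 and 85.8 to 95.1% for FGFR3. Of their counts, 83.3 to 88.1% in FGFR1, 62.1 to 75.0% in FGFR2 and 100% in FGFR3 kept that exon. The longer exon of FGFR2 was thus lower in both Matrigel libraries than in the other 6, while the shares of the first loop overlapped between the substrates.

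Among the ligands, FGF9, a secreted factor known to act between neurons and glia, had 276 and 258 normalized counts on Matrigel, 352, 360.1 and 370 for VN, and 440.5, 311 and 405 for VNP2. Every VN and VNP2 library was above both Matrigel libraries, and VNP2 spread around VN. It rose by 0.52 on the log2 scale on VNP2 over Matrigel (SE 0.134, adjusted p = 0.0232), and the VN difference of 0.43 (SE 0.134) just failed (adjusted p = 0.0533). Neither side of the threshold was stable: the VN difference passed in 8 of 16 alternatives, and the VNP2 call was lost in 6 of 16, in which its log2 difference was 0.29 to 0.58. The lowest, 0.29, came without length offsets, where VNP2 against VN turned to -0.15. Uncorrected estimated counts were 270 and 284 on Matrigel, 352, 377 and 425 for VN, and 346, 349 and 354 for VNP2.

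FGF2 encodes basic FGF, the factor also supplied by the medium, so its transcript is only the cells' own part. Its normalized counts were 1251 and 1303 for Matrigel, 1122, 1154 and 1249 for VN, and 1162, 1434 and 1227 for VNP2. Matrigel and VNP2 overlapped, and no pair passed. The fold was 0.921 on VN (95% interval 0.806 to 1.05) and 0.997 on VNP2 (0.873 to 1.14) over Matrigel. NUDT6 overlaps exons of FGF2 on the opposite strand at 12.7 to 16.8 TPM, and how strand was used in counting is not given in the sources used here. The same holds for LETM2 opposite FGFR1 (4.44 to 6.35 TPM) and FGF13-AS1 opposite FGF13 (2.80 to 5.05 TPM).

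FGF1, a ligand of all the FGF receptors, was barely present, with 8.02 and 9.52 normalized counts on Matrigel, 15.1, 30.3 and 22.8 for VN, and 20.7, 18.7 and 22.9 for VNP2. Both Matrigel libraries were lowest. The log2 difference on VN was 1.31 (SE 0.389, adjusted p = 0.0461). This gene had to be higher on VN or VNP2 to be tested at all, so the call is no support for a difference, and it was lost in 9 of the 14 alternatives that gave an adjusted p (DESeq2 gave none). On VNP2 it was 1.23 (SE 0.385, adjusted p = 0.0544).

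**Figure D3:**
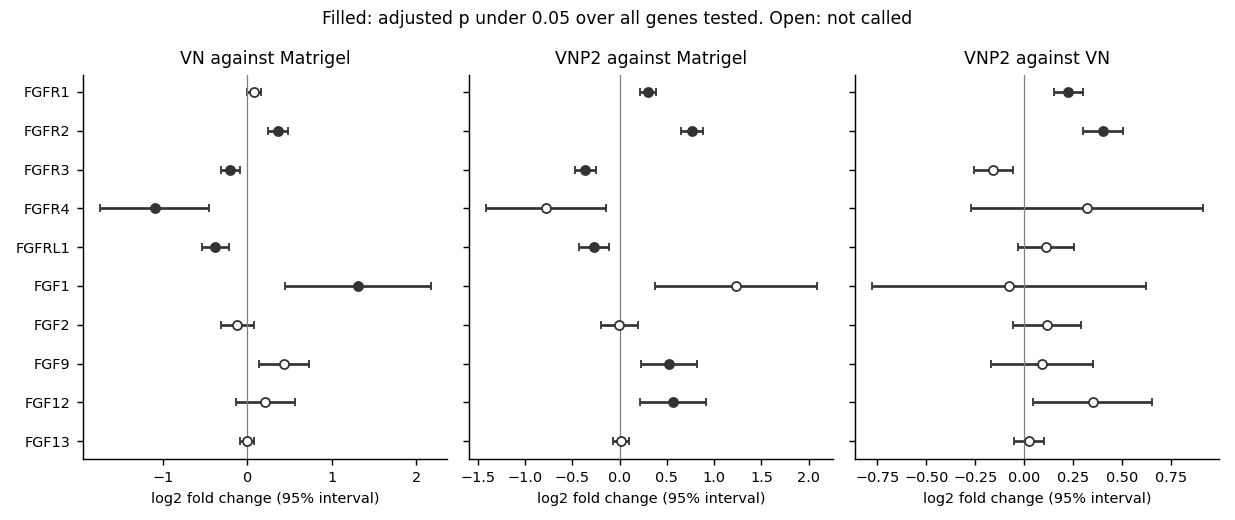
Log2 fold change of each member in the 3 pairs of substrates, with 95% intervals from the edgeR fit; filled points have an adjusted p under 0.05 over all 18201 genes, and the horizontal scales differ between panels. FGFR1 and FGFR2 are the filled points for VNP2 against VN, and the intervals of FGFR4 and FGF1 are the widest.

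The homologous factors differed from each other. FGF13 had between 4747 and 5031 normalized counts in all 8 libraries, with overlap in every pair. Its fold lay within narrow bounds, 0.938 to 1.05 for VN and 0.954 to 1.07 for VNP2 over Matrigel (95% intervals). Its makeup was steady as well: FGF13-201, which encodes 192 residues, held 63.0 to 67.7% of the counts of its coding transcripts.

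FGF12 had 344 and 409.7 normalized counts on Matrigel, 434, 495 and 380.4 for VN, and 447, 601 and 621 for VNP2. It rose by 0.56 on the log2 scale on VNP2 over Matrigel (SE 0.158, adjusted p = 0.0351). The call was lost without either Matrigel library and without VNP2 replicate 2 or 3. On VN the difference was 0.21 (adjusted p = 0.411), and without length offsets it was 0.30 and passed.

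FGF12 has alternative first coding exons far apart on chromosome 3, so the protein's amino end tells which start was used. They are shown because the transcripts that begin with them behaved differently, a split that was noticed in these values; capitals mark the start codon (GENCODE v29, GRCh38, minus strand).
FGF12-207, 243 residues, chr3:192408025-192408223: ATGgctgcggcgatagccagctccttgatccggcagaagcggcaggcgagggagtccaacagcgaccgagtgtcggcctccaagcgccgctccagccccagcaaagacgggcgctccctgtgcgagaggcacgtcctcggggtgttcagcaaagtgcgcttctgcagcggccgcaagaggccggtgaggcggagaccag
FGF12-204 and FGF12-206, 181 residues, chr3:192727181-192727193: ATGgagagcaaag

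The longer protein's transcript, FGF12-207, had 164 and 157 estimated counts on Matrigel, 163, 184 and 150.3 for VN, and 163, 157 and 164 for VNP2. The transcripts of the shorter protein had 169.7 and 172 for Matrigel, 227, 284 and 260.4 for VN, and 346, 372 and 374 for VNP2. The first kind overlapped throughout, and the second kind did not overlap between any of the substrates. The shorter form thus went from 51.5% ± 0.9996 of these counts on Matrigel (SD, n = 2) to 60.8% ± 2.60 with VN and 69.3% ± 1.17 with VNP2 (both n = 3). By TPM the shorter form had 2.13 and 3.27 for Matrigel, 4.02, 4.88 and 3.01 for VN, and 6.17, 6.27 and 6.86 for VNP2, so that on this scale Matrigel and VN overlapped and VNP2 stayed above both. No test was run on these transcript estimates.

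**Figure D4:**
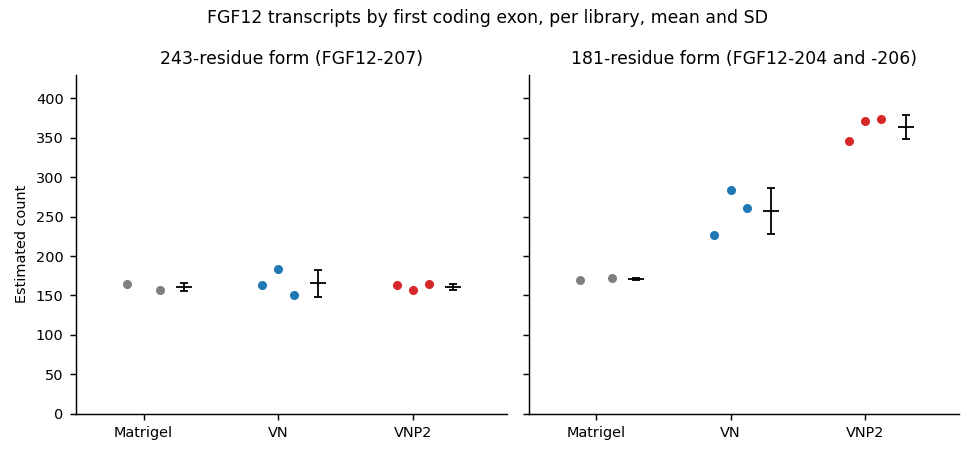
Estimated counts (linear axis from 0) of FGF12 transcripts grouped by first coding exon in each library on Matrigel (n = 2), VN (n = 3) and VNP2 (n = 3), with mean ± SD. The 243-residue form lies between 150.3 and 184 in all 8 libraries, and the 181-residue form goes from 169.7 and 172 on Matrigel to 346 or more on VNP2.

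Of the 17 other genes of the FGF family, 8 were abundant enough to test, among them the homologous factors FGF11 and FGF14, which are not ligands. FGF7 and FGF10, the ligands of the IIIb form of FGFR2, were called higher on both VN and VNP2 than on Matrigel, and none was called lower. Of all genes, 5.66% were called higher on VN and 7.44% on VNP2 than on Matrigel. FGF14 and FGF19 were called on VNP2 over Matrigel (log2 0.37 and 0.67, adjusted p = 0.0304 and 0.0127), with log2 differences of 0.26 and 0.33 on VN that did not pass, and between VNP2 and VN neither passed (adjusted p = 0.516 and 0.185). FGF10 had 329 and 317 normalized counts on Matrigel, 445, 478 and 442 for VN, and 586, 606 and 579 for VNP2, without overlap. It rose by 0.50 on VN and by 0.87 on VNP2 on the log2 scale (SE 0.0761 and 0.0757, adjusted p = 0.00173 and 2.49e-05), and by 0.38 on VNP2 over VN (SE 0.0646, adjusted p = 0.00758). FGF7 was low, with means of 16.7 ± 0.514, 56.4 ± 6.46 and 41.0 ± 6.25, and rose by 1.74 and 1.28 (SE 0.250 and 0.253, adjusted p = 0.00112 and 0.00585). Without Matrigel replicate 2, the number called on VNP2 over Matrigel was 2 instead of 4.

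Of the 12 coreceptors and FGF binding proteins, 8 were tested. VN called 2 higher and 2 lower than Matrigel, VNP2 4 higher and 2 lower, and VNP2 over VN 2 higher. The shares of all genes called higher and lower were 5.66% and 9.6%, 7.44% and 9.13%, and 3.09% and 2.01% in these pairs. FLRT2, a membrane protein that associates with FGF receptors, rose by 0.50 on VN and 0.69 on VNP2 (adjusted p = 0.00451 and 0.000462), and FGFBP3, a secreted FGF carrier, fell by 0.39 and 0.45 (adjusted p = 8.54e-05 and 2.00e-05). L1CAM, a cell adhesion molecule, rose by 0.37 on VNP2 over VN (adjusted p = 0.0144). The klotho coreceptors KL and KLB were too low to test. The VNP2 over Matrigel count of higher genes was 2 without Matrigel replicate 2, and that of VNP2 over VN was 0 without VN replicate 2 or 3 or VNP2 replicate 2 or 3.

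All 21 adaptors and effectors of the receptors were tested, among them STAT3, PLCG1 and CBL, which are not steps of the RAS and ERK cascade. VN against Matrigel called 4, all lower, where 15.3% of all genes were called (9.6% lower). VNP2 against Matrigel called 1 higher and 4 lower, where 16.6% were called (7.44% higher, 9.13% lower). VNP2 against VN called none, where 5.1% were. STAT3 was among those lower in both pairs with Matrigel (log2 -0.42 and -0.51), and CBL among those lower on VNP2 (log2 -0.13). SHC1, an adaptor protein, fell by 0.44 and 0.60 (adjusted p = 0.00027 and 2.08e-05), and BRAF, a kinase of the cascade, rose by 0.21 on VNP2 (adjusted p = 0.0255). The core adaptors FRS2 and GRB2 did not pass in any pair, with log2 differences between -0.07 and 0.02. Without Matrigel replicate 2, VN replicate 2 or VN replicate 3, 2 were called lower on VN. Without VN replicate 1, 2 were called higher on VN over Matrigel, and 1 higher and 1 lower on VNP2 over VN. Without VN replicate 3, 1 was called lower on VNP2 than on VN.

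The 11 feedback inhibitors, which ERK signalling induces and which damp it, were called mostly in the pairs with VNP2. VN against Matrigel called 1 of 11, where 15.3% of all genes were called. This was DUSP5, which fell by 0.95 (adjusted p = 0.0206). VNP2 called 6 higher than Matrigel and 8 higher than VN, and none lower, with a median log2 difference of 0.26 against VN beside 0.00 over all genes. Of all genes, 7.44% were called higher on VNP2 than on Matrigel and 3.09% higher than on VN. SPRY4 rose by 0.77 on VNP2 over VN (SE 0.0653, adjusted p = 0.000112), from 1414, 1537 and 1548 to 2782, 2529 and 2335 normalized counts. SPRY1 rose by 0.71 on VNP2 over Matrigel (SE 0.0561, adjusted p = 1.26e-05). With each library left out in turn, 5 to 7 were called higher on VNP2 than on Matrigel and 6 to 8 higher than on VN. The study picked genes of this group on these samples, so the count is not independent evidence of a direction.

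Of the 10 genes known to be induced by FGF and ERK, VN called 1 higher and 7 lower than Matrigel, VNP2 3 higher and 6 lower, and VNP2 over VN 7 higher and 1 lower. Among all genes the shares higher and lower were 5.66% and 9.6%, 7.44% and 9.13%, and 3.09% and 2.01%. The transcription factor ETV5 rose by 0.61 on VNP2 over Matrigel (SE 0.0492, adjusted p = 1.35e-05), and ETV1 rose by 0.25 on VN (adjusted p = 0.00758). The AP-1 gene FOSL1 fell by 2.11 on VN and by 1.69 on VNP2 against Matrigel (adjusted p = 1.94e-05 and 5.38e-05). EGR1, an immediate early gene, had 266 and 280.5 normalized counts on Matrigel, 109, 74.1 and 90.5 for VN, and 171, 149.6 and 121 for VNP2. It rose by 0.69 on VNP2 over VN (adjusted p = 0.0433), while CCND1, a cell cycle gene, fell by 0.11 (adjusted p = 0.0456). The number called higher on VNP2 than on VN was 4 without VNP2 replicate 1.

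Of the 10 partners of the homologous factors, mostly sodium channel genes, 9 were tested. VN and VNP2 each called 3 higher than Matrigel and none lower, and none was called between VNP2 and VN. Of all genes, 5.66% were called higher on VN and 7.44% on VNP2 than on Matrigel, and 5.1% were called between VNP2 and VN. SCN1A rose by 1.68 on VN (SE 0.356, adjusted p = 0.0105), and SCN3A rose by 0.91 on VNP2 (SE 0.162, adjusted p = 0.00335). Without Matrigel replicate 2, 0 were called on VN over Matrigel and, without that library or VNP2 replicate 2, 2 on VNP2 over Matrigel. Between VNP2 and VN, the log2 difference of SCN1A was -1.17 (adjusted p = 0.0654) with all libraries. Without VN replicate 1, 1 partner was called higher and 2 lower on VNP2 than on VN, and without VNP2 replicate 2, 1 was called lower.

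**Figure D5:**
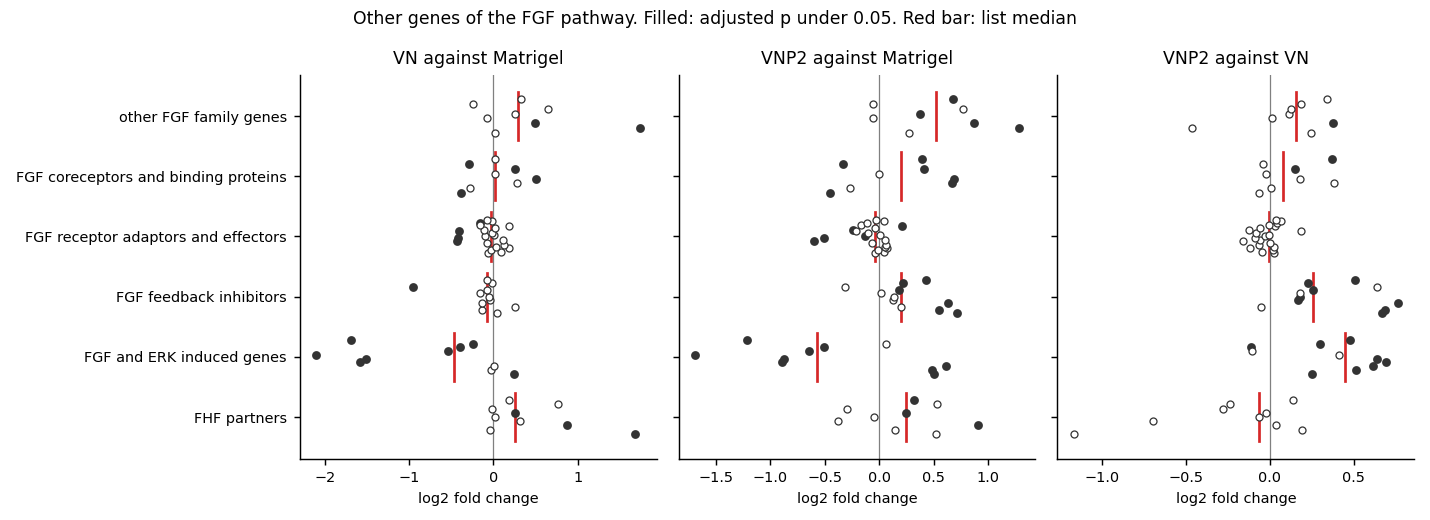
Log2 fold changes of the tested genes in 6 lists around the FGF receptors for the 3 pairs of substrates; each point is 1 gene, filled where the adjusted p is under 0.05, the red bar is the list's median, and the horizontal scales differ between panels. The feedback inhibitors have 8 of 11 points filled and to the right for VNP2 against VN. For VN against Matrigel only DUSP5 is filled, to the left.

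For each member called across the 3 substrates, the genes most like it were sought by Pearson's r of log2 normalized counts over the 8 libraries, among 12996 genes with a mean of at least 100. The nearest to FGFR2 were FAM181B, ADCYAP1R1 and RHOU, each with r = 0.99. FGFR1 was nearest to PSD, KIF26A and KLHDC8A (r = 0.99), FGFR3 to HDLBP, SRI and STBD1 (r = 0.98 to 0.99), FGFRL1 to MAP3K11, ACOT7 and TNFRSF1A (r = 0.99), and FGF9 to Z97989.1, CLDN12 and PDE8A (r = 0.95 to 0.96). ADCYAP1R1, a neuropeptide receptor gene, averaged 394 normalized counts on Matrigel, 724 with VN and 1186 with VNP2. The points are 8 libraries in 3 groups and share the differences between the substrates, so r is given as a description.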

How the data were processed

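RNA-seq of 8 libraries was used. The authors trimmed reads with TrimGalore, ran Salmon on GENCODE transcripts of GRCh38.p13 and deposited estimated counts and TPM per transcript, and a gene table of DESeq2 (1.27.12) normalized counts, a signal scaled by size and length factors. Here 205225 of 226608 transcripts were matched to GENCODE v29 by identifier (98.8 to 98.9% of the estimated counts), estimated counts were summed per gene and rounded, and length offsets were added. For the 10 genes every group mean lay within 0.0468% of the authors' table. After filterByExpr (minimum count 10, total 15), 18201 genes were fitted in edgeR 4.0.16 (R 4.3.3; TMM, quasi-likelihood test, all libraries, no block) with Benjamini-Hochberg adjustment. SE is the log2 fold change divided by the root of F. Alternatives were DESeq2 1.42.0, RLE, no offsets, other filters, pairs only, limma 3.58.1 on the authors' table (log2, pseudocount 1), a block, and left-out libraries. The left-out counts of the other lists were chosen after seeing the data. The fit was tested on simulated data. A count of 100 or less has wide counting error.

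The genes and lists were chosen with earlier results of these data known. All 10 members are named, and from each other list the called gene with the largest rise and fall in each pair. FGF11, FGF14, FGF19, FRS2, GRB2, STAT3, PLCG1, CBL, KL, KLB and ADCYAP1R1 were singled out after values were seen.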

Additional observations from a re-analysis of the deposited data

How the results depend on the processing

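The Matrigel group has 2 libraries, so leaving 1 out leaves an arm with a single sample that is assumed to vary like the others. With each library left out in turn, the number of members called, FGF1 included, was 3 to 6 across the substrates (5 with all libraries), 1 to 5 for VN against Matrigel (5), 3 to 7 for VNP2 against Matrigel (6) and 2 for VNP2 against VN. The FGF feedback inhibitors called for VN against Matrigel numbered 0 to 1 (DUSP5 was lost without Matrigel replicate 2 or VN replicate 2), the FGF and ERK induced genes 5 to 8 for VN against Matrigel and 4 to 8 for VNP2 against VN, lowest without VNP2 replicate 1. limma on the authors' normalized counts called 8 members across the substrates, and the cause was not tested. Deviations from the group mean correlated at -0.13 to 0.16 between same-numbered libraries and at -0.20 to 0.21 between the others. This cannot tell whether replicates were handled in pairs, since the deviations of the 2 Matrigel libraries mirror each other. The replicate block gave 5, 5, 5 and 2 members called, and under it only the VNP2 call of FGF9 over Matrigel was lost (log2 0.48). Some differences that passed in no setting changed sign. With each library left out, FGF13 ranged from -0.022 to 0.011 (VN against Matrigel) and -0.0054 to 0.036 (VNP2 against Matrigel), FGF2 from -0.096 to 0.059 (VNP2 against Matrigel), and FGF1 from -0.32 to 0.13 and FGF9 from -0.016 to 0.23 (VNP2 against VN). FGF2 turned to 0.043 under the block (VNP2 against Matrigel). Without length offsets FGF13 turned to 0.0034 (VN against Matrigel) and, for VNP2 against VN, FGF13 to -0.0020, FGF1 to 0.051, FGF2 to -0.059 and FGF9 to -0.15. By TPM in place of estimated counts, the share of the shorter FGF12 form was 47.6, 56.0 and 68.4% on Matrigel, VN and VNP2. FGFR4 and FGF1 had too few counts to be tested at a minimum of 50 in every library.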
